A study of Mus musculus with 346 samples.

Results

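The genes described here are Nepn, Clic6, Chrna4, Myo5c, Tmprss2 and Rhov, 6 of the 20474 genes in a table of single mouse cells. They were named as a list shared by the epithelium of the early pancreatic buds, and were selected on their measured levels in these bud cells against the other plates. Their levels by plate and by cell class are therefore a description, and no test was made of them. The cells came from embryos that all carried the Tg(Prox1-EGFP) transgene, in which the Prox1 regulatory region drives green fluorescent protein, and fluorescent cells were sorted and read by Smart-seq2, a full-length method that handles one cell per well. Plate 1A held 82 foregut cells of embryonic day (E) 8.5. At E10.5 the ventral pancreatic bud gave 27 cells on plate 3, and the dorsal pancreatic bud gave 48 cells on plate 2A and 38 on plate 2B. A further 78 cells came from the liver at E10.5 on plate 5A and 73 from the pancreas at E14.5 on plate 4A. No group lacked the transgene, no treatment was given, and the labels name no animals, so each plate or group counts as 1 sample and cells are not replicates.

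The pancreas arises from a dorsal and a ventral outgrowth of the gut endoderm, and the ventral bud lies beside the endoderm that forms the liver and the bile ducts. Pdx1 is a homeobox transcription factor required for pancreas formation, and Afp encodes alpha-fetoprotein, a plasma protein of the fetal liver and yolk sac. The 6 genes have unlike products. Nepn encodes nephrocan, a secreted protein of the small leucine-rich proteoglycan type known from the mouse gut endoderm. Clic6 belongs to the chloride intracellular channels. Chrna4 encodes the alpha4 subunit of the neuronal nicotinic acetylcholine receptor, a ligand-gated ion channel that is best known from the brain. Myo5c encodes an actin motor of the class V myosins that is found in epithelial and glandular cells and moves secretory carriers. Tmprss2 encodes a serine protease anchored in the surface membrane of epithelia, and Rhov an atypical small GTPase related to Cdc42 that binds p21-activated kinases.

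All 6 genes are on autosomes of the GRCm38 build. In the GENCODE M21 annotation Nepn spans chr10:52388972-52404625 on the plus strand, Clic6 chr16:92485736-92541243 on the plus strand and Chrna4 chr2:181018380-181043546 on the minus strand. Myo5c spans chr9:75232020-75305451 on the plus strand, Tmprss2 chr16:97564682-97611195 on the minus strand and Rhov chr2:119269201-119271272 on the minus strand. The values count reads over whole genes. Clic6 overlaps the sense-overlapping transcript 2410124H12Rik on the same strand, and how reads in the overlap were assigned between these 2 genes is not known. Tmprss2 and Clic6 share a chromosome, as do Chrna4 and Rhov, but none of the 6 overlaps another.

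Of the 6 genes, 5 had a RefSeq promoter window on GRCm38.p6, from 250 bases before to 50 bases after the annotated start. Those of Nepn, Chrna4 and Rhov are printed because most of the cells with Chrna4 or Rhov also carried Nepn, as described below. Capitals mark the letters AGATAA (the core of GATA factor sites), TGTTTAC or TATTTAC (forkhead factors), GTTAAT (part of the HNF1 site), TAATTA (homeobox factors), TATAAA (the TATA box) and TGACGTCA (the cAMP response element). Both strands were searched, and no motif overlapped another in these windows. The windows run 5′ to 3′ on the gene's strand.
Nepn, chr10:52391358-52391657, plus strand: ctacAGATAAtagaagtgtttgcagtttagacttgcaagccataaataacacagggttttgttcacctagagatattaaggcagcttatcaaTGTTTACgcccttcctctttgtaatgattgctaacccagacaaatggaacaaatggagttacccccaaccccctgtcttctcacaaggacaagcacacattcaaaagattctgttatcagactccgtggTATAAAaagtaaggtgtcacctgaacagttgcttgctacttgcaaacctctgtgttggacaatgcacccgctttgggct
Chrna4, chr2:181039128-181039427, minus strand: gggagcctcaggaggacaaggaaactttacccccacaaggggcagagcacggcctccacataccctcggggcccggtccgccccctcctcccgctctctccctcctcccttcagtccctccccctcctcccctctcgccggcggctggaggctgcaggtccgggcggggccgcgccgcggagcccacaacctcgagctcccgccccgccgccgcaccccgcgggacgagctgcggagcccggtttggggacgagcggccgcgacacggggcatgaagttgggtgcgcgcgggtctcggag
Rhov, chr2:119271177-119271476, minus strand: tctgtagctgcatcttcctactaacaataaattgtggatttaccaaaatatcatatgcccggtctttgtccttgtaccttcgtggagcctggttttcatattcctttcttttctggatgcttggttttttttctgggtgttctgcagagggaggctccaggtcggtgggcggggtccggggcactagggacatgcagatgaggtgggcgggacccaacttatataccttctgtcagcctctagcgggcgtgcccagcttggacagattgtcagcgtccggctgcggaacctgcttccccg
The Nepn window held 3 of the motifs, AGATAA beginning at position −246 from the start, TGTTTAC at −158 and TATAAA at −29. The RefSeq starts of Nepn, Chrna4 and Rhov lie within the GENCODE spans of these genes. The Myo5c window held TATAAA at −236, and the windows of Chrna4, Tmprss2 and Rhov held none of these letters. Among 32851 RefSeq windows of the same length, 11.2% held the GATA letters, 6.54% the forkhead letters, 7.10% the HNF1 letters, 5.29% the homeobox letters, 13.6% the TATA letters and 1.79% the cAMP response letters. The GC content was 42.3% in the Nepn window and 74.3% in the Chrna4 window, against a median of 52.7% over all windows. These matches are a description of letters in a window and not of bound sites.

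The deposited values are log2 of reads divided by a size factor per cell, plus 1. A cell is said to carry a gene at a value of 5 or more, which is 31 normalized reads. Median reads per cell were between 811359 (E14.5) and 1029064 (foregut) on all plates except the liver plate, with 2510704. The labelled tissues were checked against 10 epithelial genes, and a cell with 2 or more of them counted as epithelial. By this count 21 of 82 foregut cells, 27 of 27 ventral bud cells, 43 of 48 and 30 of 38 dorsal bud cells, 34 of 78 liver cells and 13 of 73 cells at E14.5 were epithelial. On the other side, 72 foregut cells, 5 and 10 dorsal bud cells, 24 liver cells and 59 cells at E14.5 carried 3 or more markers of mesenchyme, heart, neural, endothelial or blood cells, and no ventral bud cell did. The foregut and E14.5 plates thus held mostly cells that go against an epithelial label, and the comparisons with the foregut and the counts of genes per cell are given with and without those cells. Prox1 itself was carried by between 22 of 73 cells (E14.5) and 27 of 27 cells (ventral bud).

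Nepn was the most abundant of the 6 in the buds and was not found outside them. It was carried by 0 of 82 foregut cells, 10 of 27 ventral bud cells (37%, 95% Clopper-Pearson interval 19.4 to 57.6), 31 of 48 cells of dorsal plate 2A (64.6%, 49.5 to 77.8), 14 of 38 cells of dorsal plate 2B (36.8%, 21.8 to 54), 0 of 78 liver cells and 0 of 73 cells at E14.5. A count of 0 allows a share of up to 3.66% in the foregut, 3.85% in the liver and 4.11% at E14.5. Among carriers the level had a median of 12.16 in the ventral bud, 11.75 on plate 2A and 12.06 on plate 2B, with a highest value of 13.81 on the log2 scale. The gene was close to all or nothing: 56 of 113 bud cells had any read of it, and 55 of those passed the carrying limit. Per length of exon, Nepn averaged 1014 normalized reads per kilobase over the 113 bud cells, against 41.2 for Rhov, 26.2 for Clic6, 16 for Chrna4, 9.13 for Tmprss2 and 3.30 for Myo5c.

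**Figure D1:**
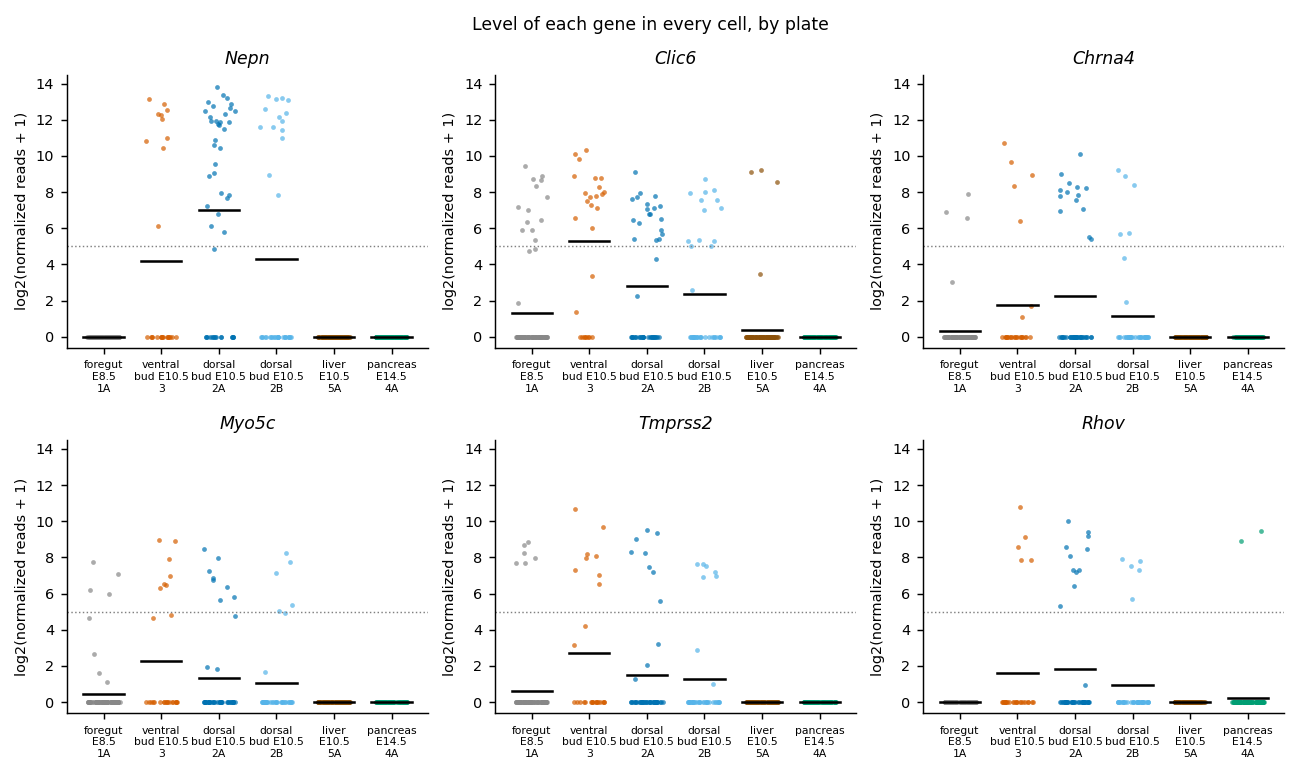
Level of each of the 6 genes in every cell, as log2(normalized reads + 1), by plate. Each point is a cell, the black line is the mean over cells and the dotted line is the carrying limit of 5. Nepn points of the 3 bud plates lie mostly between 10 and 14 or at 0, and its foregut, liver and E14.5 cells are all at 0.

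Clic6 was the most widely spread. It was carried by 13 of 82 foregut cells (15.9%, 8.72 to 25.6), 17 of 27 ventral bud cells (63%, 42.4 to 80.6), 19 of 48 and 13 of 38 dorsal bud cells (39.6% and 34.2%), 3 of 78 liver cells (3.85%, 0.800 to 10.8) and 0 of 73 cells at E14.5. The mean level was 5.32 ± 3.96 in the ventral bud, above 2.84 ± 3.39 and 2.39 ± 3.33 on the dorsal plates (SD over 27, 48 and 38 cells). The SDs are wide because each group mixes cells at 0 with carriers, whose median level was 7.94, 6.79 and 7.15 on those plates. The 3 liver carriers were at 8.53 or more, above the carrier medians of the buds.

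Chrna4 and Rhov were carried by a minority of bud cells. Chrna4 was carried by 3 foregut cells, 5 ventral bud cells (18.5%, 6.30 to 38.1), 14 cells of plate 2A (29.2%, 17 to 44.1), 5 cells of plate 2B (13.2%, 4.41 to 28.1) and no liver or E14.5 cell. Rhov was carried by no foregut cell, 5 ventral bud cells (18.5%, 6.30 to 38.1), 11 cells of plate 2A (22.9%, 12 to 37.3), 5 cells of plate 2B (13.2%, 4.41 to 28.1), no liver cell and 2 cells at E14.5 (2.74%, 0.334 to 9.55). Rhov was the only one of the 6 carried at E14.5, and both cells held it at a high level, 8.91 and 9.44. In the buds the 3 plates' intervals overlapped for both genes.

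Myo5c and Tmprss2 were carried on the same plates. Myo5c was carried by 4 foregut cells (4.88%, 1.34 to 12), 7 ventral bud cells (25.9%, 11.1 to 46.3), 8 and 5 dorsal bud cells (16.7% and 13.2%), and none of liver or E14.5. Tmprss2 was carried by 6 foregut cells (7.32%, 2.73 to 15.2), 8 ventral bud cells (29.6%, 13.8 to 50.2), 8 and 6 dorsal bud cells (16.7% and 15.8%), and none of liver or E14.5. Ventral and dorsal intervals overlapped for both. In epithelial cells with neither another type's markers nor 3 endocrine markers, a set chosen after the values were seen, the plates were closer: Myo5c was carried by 7 of 26 ventral cells and 8 of 27 and 5 of 14 dorsal cells, and Tmprss2 by 8 of 26 ventral cells and 8 of 27 and 5 of 14 dorsal cells. In carriers of the ventral bud the median level was 6.96 for Myo5c and 8.03 for Tmprss2.

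**Figure D2:**
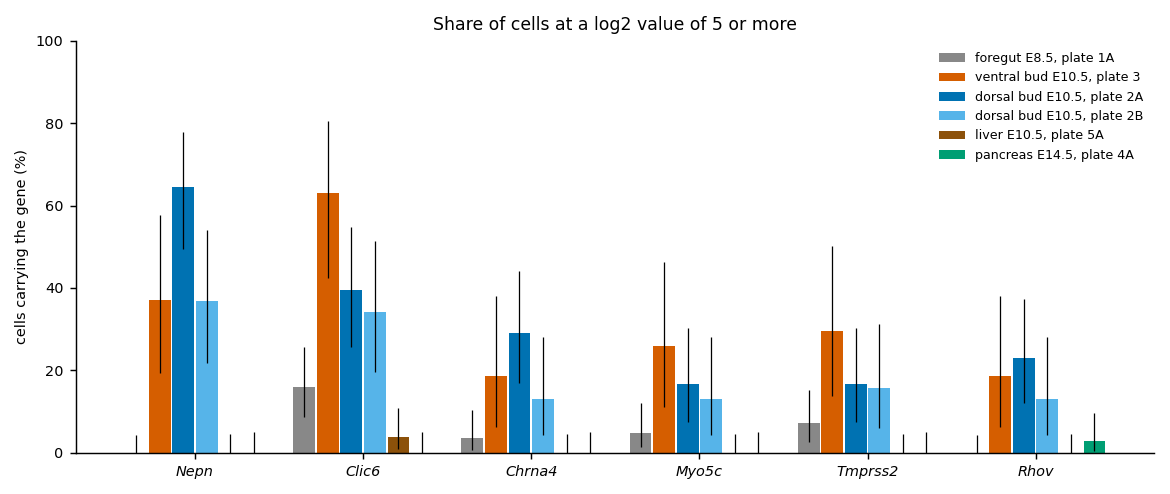
Share of cells that carried each gene, in percent of the cells of a plate, with exact Clopper-Pearson 95% intervals as vertical lines. Intervals without a bar are plates with no carrier. The bud plates stand above liver and E14.5 for all 6 genes, with Nepn reaching 64.6% on plate 2A and Clic6 63% in the ventral bud.

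After thinning every cell to 500000 reads, with 16 reads or more taken as carrying, 10 ventral bud, 31 and 14 dorsal bud cells carried Nepn, as without thinning. Its carriers had medians of 3821, 3016 and 3807 reads on plates 3, 2A and 2B, so thinning could hardly change these counts. Among the other genes, Clic6 went from 13 to 12 cells on plate 2B and Myo5c from 7 to 8 ventral cells. No other count on a plate changed. The liver plate, which had the deepest cells, had the fewest carriers besides E14.5.

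Set against the foregut, the ventral bud had a mean level higher by 1 or more for 6 of 6 genes, where 4.95% of the 9725 genes tested were that much higher. The differences were 4.21 for Nepn, 4.01 for Clic6, 2.10 for Tmprss2, 1.83 for Myo5c, 1.64 for Rhov and 1.44 for Chrna4, on the log2(normalized reads + 1) scale. The dorsal bud was higher by 1 or more for Nepn (5.83), Chrna4 (1.48), Rhov (1.45) and Clic6 (1.33), against 7.82% of 10041 genes, and differed by 0.75 for Myo5c and 0.78 for Tmprss2. All 6 genes had a mean of 1 or more in a bud, which is the filter for a gene to be tested, and passed it through the buds alone apart from Clic6. The genes were chosen for their bud levels, so these counts are not evidence that they stand out. Fewer cells of a type and less RNA per cell cannot be told apart in a mean over a plate.

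The foregut comparison depended on which foregut cells entered. Of the 82 foregut cells, 10 carried fewer than 3 markers of another type, and in these Clic6 was carried by 6, Tmprss2 by 6, Myo5c by 4, Chrna4 by 1, and Nepn and Rhov by none. Tmprss2 had a mean level of 2.70 ± 3.82 in the 27 ventral bud cells and 4.92 ± 4.25 in these 10 foregut cells (SD over cells). Myo5c had 2.28 ± 3.40 in the ventral bud and 3.44 ± 3.20 in these foregut cells, and Clic6 had 5.32 ± 3.96 in the ventral bud and 5.00 ± 4.40 in these foregut cells. Without cells of other types on either side, the ventral bud minus foregut difference was −2.22 for Tmprss2 and −1.16 for Myo5c, and the dorsal bud minus foregut difference was −1.87 for Clic6. Tmprss2 and Myo5c were below these foregut cells in the dorsal bud too, at 1.57 ± 3.05 and 1.46 ± 2.74 over its 71 cells without other types. Over all cells their dorsal bud minus foregut differences were 0.78 and 0.75. The 72 foregut cells of other types had Clic6 in 7 cells, Chrna4 in 2 and the other 4 genes in none. Nepn and Rhov were thus at 0 in foregut cells of both kinds, while Clic6, Myo5c and Tmprss2 were carried by foregut cells without markers of other types in shares whose intervals overlapped those of the ventral bud. For the 10 foregut cells a count of 0 allows a share of up to 30%.

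Against the liver, the ventral bud was higher by 1 or more for 6 of 6 genes, beside 29.6% of 8298 genes, and the dorsal bud likewise, beside 54.4% of 9608 genes. Clic6 differed most in the ventral bud, by 4.93, and Nepn in the dorsal bud, by 5.83. The smallest of the differences was 1.21, for Myo5c in the dorsal bud. The median over all genes tested was 1.10 in the dorsal comparison, so Myo5c lay 0.10 and Tmprss2 0.28 above that median. Scaling by total reads moved the median of the ventral comparison by 0.17 and no other median by 0.1 or more. Of the 34 epithelial liver cells, 3 carried Clic6 and none carried another of the 6 genes, which allows up to 8.82% for each.

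At E14.5 all 6 genes were lower by 1 or more than in the ventral bud, beside 30.3% of 8734 genes, and than in the dorsal bud, beside 53.9% of 9648 genes. Nepn was at 0 in all 73 cells, and the Rhov difference was −1.39 from the ventral bud and −1.20 from the dorsal bud. In the dorsal comparison Rhov, Myo5c and Tmprss2 lay within 0.30 of the median of all genes tested, which was itself −1.08. Among the 13 epithelial cells at E14.5, 12 of which carried 3 or more endocrine markers, only Rhov was found, in 2 cells. Since 59 of the 73 cells carried markers of another type, chiefly mesenchyme, the change of stage and the change of cell types cannot be told apart.

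Between the buds, the ventral bud had higher means than the dorsal bud for Clic6 by 2.68, Tmprss2 by 1.31 and Myo5c by 1.07, beside 3.88% of 9572 genes. It had a lower Nepn mean, 4.21 ± 5.72 in 27 ventral cells against 5.83 ± 5.73 in 86 dorsal cells, where 37.2% of genes were lower by 1 or more. Chrna4 and Rhov differed by −0.03 and 0.19. Over all cells the Nepn shares of the ventral bud and of dorsal plate 2B were 37% and 36.8%. These values changed with the cells compared. In epithelial cells with neither another type's markers nor 3 endocrine markers, Nepn was carried by 9 of 26 ventral cells and by 24 of 27 and 12 of 14 cells of dorsal plates 2A and 2B, and the ventral minus dorsal difference was −6.44. This set held 8 ventral cells with Pdx1 at 5 or more and 18 without. On plates 2A and 2B it held 17 and 11 with Pdx1, and 10 and 3 without. With Pdx1, Nepn was carried by 7 of 8 ventral cells, 16 of 17 on plate 2A and 11 of 11 on plate 2B. Without Pdx1, Nepn was carried by 2 of 18 ventral cells, 8 of 10 on plate 2A and 1 of 3 on plate 2B. The part of the Pdx1 shares in the Nepn difference was not tested. In the same set the differences of Clic6, Tmprss2 and Myo5c were 1.47, 0.19 and −0.12, so Clic6 alone of the 3 stayed higher by 1 or more in the ventral bud. The 3 genes with higher ventral means over all cells are also the 3 most often carried by the 10 foregut cells without markers of other types.

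Single bud cells often held several of the 6 genes. The mean number per cell was 0.32 ± 0.72 in the foregut, 1.93 ± 1.30 in the ventral bud, 1.90 ± 1.52 and 1.26 ± 1.66 on dorsal plates 2A and 2B, 0.04 ± 0.19 in the liver and 0.03 ± 0.16 at E14.5 (SD over cells). Cells with 3 or more made up 3 of 82 in the foregut (3.66%, 0.761 to 10.3), 9 of 27 in the ventral bud (33.3%, 16.5 to 54), 14 of 48 on plate 2A (29.2%, 17 to 44.1) and 10 of 38 on plate 2B (26.3%, 13.4 to 43.1). No liver or E14.5 cell held more than 1. All 3 foregut cells with 3 or more were among the 10 without markers of another type, which makes 30% of those cells. In epithelial cells with neither another type's markers nor 3 endocrine markers, the mean number was 1.78 in 9 foregut cells, 1.96 in 26 ventral cells, and 2.81 and 2.93 in 27 and 14 dorsal cells, and 3 of 9 foregut, 9 of 26 ventral, and 13 of 27 and 10 of 14 dorsal cells held 3 or more. Of the 14 cells at E14.5 without markers of another type, 2 carried Rhov and none another of the 6 genes. The 13 bud cells that were not epithelial carried none of the 6, and the 15 bud cells with markers of another type held Clic6 in 1 and Tmprss2 in 1.

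**Figure D3:**
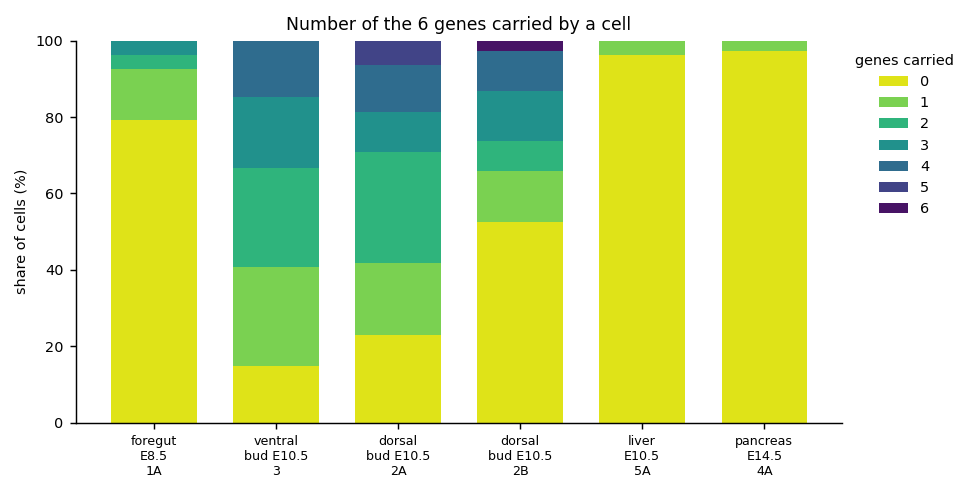
Number of the 6 genes carried by a cell, as shares of the cells of each plate in percent, with darker colours for more genes. Liver and E14.5 cells carried at most 1, and 33.3%, 29.2% and 26.3% of cells on the 3 bud plates carried 3 or more.

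A single dorsal cell, on plate 2B, carried all 6. It held Nepn at 11.41, Chrna4 at 8.41, Rhov at 7.51, Tmprss2 at 7.18, Clic6 at 7.04 and Myo5c at 5.35, together with Prox1 at 10.30, Sox9 at 11.43, Nkx6-2 at 8.36 and Epcam at 10.09. Its Pdx1 value was 0 and its Afp value 4.34, so it fell outside both classes used below. The 3 cells with 5 of the genes were all on plate 2A and all carried Pdx1, at 7.24, 7.77 and 7.84. Tmprss2 was the missing gene in 2 of them and Rhov in the third. These cells were singled out after their values were seen.

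Pairs of genes met in the same cell to different degrees. Over the 113 bud cells, the number of cells with both genes was set beside a product, the number given by multiplying the 2 shares within each plate and summing over the 3 plates. On plates 2A and 2B, 5 and 8 cells were not epithelial and carried none of the 6, which lowers the products there. Chrna4 and Rhov met in 13 cells, against a product of 4.79, which is 54.2% of the Chrna4 cells and 61.9% of the Rhov cells. Myo5c and Rhov met in 10 cells against 3.79, and Chrna4 and Myo5c in 8 against 4.29. In the ventral bud alone these pairs, in the same order, met in 3, 2 and 1 cells, against 0.93, 1.30 and 1.30. Nepn was present in 22 of 24 Chrna4 cells (91.7%), 19 of 21 Rhov cells (90.5%) and 17 of 20 Myo5c cells (85%), but these were 40%, 34.5% and 30.9% of the 55 Nepn cells. The 3 rarer genes were thus mostly found within the larger set of Nepn cells.

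Tmprss2 stood apart from that set. It met Nepn in 10 cells against a product of 10.3, Chrna4 in 4 against 4.60 and Rhov in 4 against 4.10. In the ventral bud none of the 8 Tmprss2 cells carried Nepn, where the product was 2.96, while on plates 2A and 2B it met Nepn in 5 cells each, against 5.17 and 2.21. Clic6 met each of the other 5 in 1.29 to 1.54 times the product. In the ventral bud alone it met Nepn in 6 cells against 6.30, Chrna4 in 4 against 3.15 and Myo5c in 5 against 4.41. There it met Tmprss2 in 6 against 5.04 and Rhov in 3 against 3.15. On plate 2B Clic6 met Nepn in 10 cells against 4.79. The Pearson correlation of levels, less each plate's mean, was 0.55 for Chrna4 with Rhov, 0.54 for Nepn with Chrna4, 0.00 for Nepn with Tmprss2 and −0.12 for Chrna4 with Tmprss2. These are descriptions over 113 cells that share plates and libraries made together.

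**Figure D4:**
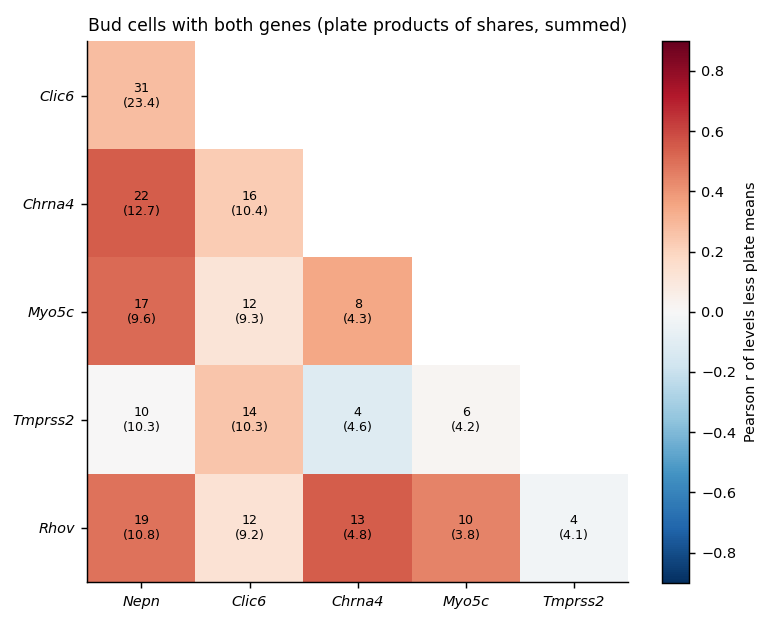
Bud cells that carried both genes of a pair, out of 113, with the product of their shares in each plate, summed over the 3 plates, in parentheses. Colour gives the Pearson correlation of levels after each plate's mean was taken off. Chrna4 with Rhov has 13 cells beside a product of 4.79, and the Tmprss2 row shows numbers close to the product except with Clic6 and Myo5c.

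The bud cells were then divided by Pdx1 and by Afp, each at a log2 value of 5. For Pdx1, 41 of the 113 bud cells lay above this limit, the lowest at 5.75, 3 lay between 0 and the limit, the highest at 4.18, and 69 were at 0. For Afp, 28 lay above, the lowest at 5.27, 4 lay between, the highest at 4.36, and 81 were at 0. Pdx1 was carried by 8 ventral cells and by 21 and 12 dorsal cells. Afp was carried by 19 ventral cells, 8 cells of plate 2A and 1 cell of plate 2B, so plate 2B gives no comparison by Afp. Both classes met in 2 ventral cells and in 5 cells of plate 2A.

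Pdx1 cells carried more of the 6 genes than other cells on every bud plate. The mean number was 3.25 ± 1.04 in 8 Pdx1 cells and 1.37 ± 0.96 in 19 other cells of the ventral bud. It was 2.86 ± 1.49 in 21 Pdx1 cells and 1.15 ± 1.06 in 27 other cells of plate 2A, and 3.00 ± 0.95 in 12 Pdx1 cells and 0.46 ± 1.24 in 26 other cells of plate 2B. Cells with 3 or more genes were 7 of 8, 11 of 21 and 9 of 12 Pdx1 cells, against 2 of 19, 3 of 27 and 1 of 26 other cells. Of the 41 Pdx1 cells, 1 carried none of the 6 genes. This was a cell of plate 2A with Pdx1 at 6.55 and 3 or more endocrine markers.

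The cells below the Pdx1 limit were of mixed kinds on the dorsal plates. They included 11 cells with 3 or more endocrine markers on plate 2A and 8 on plate 2B, and 5 and 10 cells with markers of another type, while Pdx1 cells included 4 and 1 with endocrine markers and none of another type. These classes overlap, since 10 and 6 of the endocrine-marker cells below the limit had no markers of another type. All 19 ventral cells below the limit were epithelial. Restricted to epithelial cells with neither another type's markers nor 3 endocrine markers, the ventral means were 3.25 in 8 Pdx1 cells and 1.39 in 18 other cells. On plate 2A they were 3.24 ± 1.35 in 17 Pdx1 cells and 2.10 ± 0.57 in 10 other cells, and the difference, 1.14, was smaller than the 1.71 found over all cells. Plate 2B kept only 3 other cells in this set, with 0, 0 and 6 genes. This restriction was added after the values were seen.

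Over all cells of a plate, Nepn differed most of the 6 between Pdx1 cells and the others. It was carried by 7 of 8 Pdx1 cells and 3 of 19 other cells in the ventral bud, by 17 of 21 Pdx1 and 14 of 27 other cells on plate 2A, and by 11 of 12 Pdx1 and 3 of 26 other cells on plate 2B. Mean levels were 10.16 ± 4.69 in Pdx1 cells and 1.70 ± 4.04 in other cells of the ventral bud. On plate 2A they were 9.79 ± 5.04 in Pdx1 cells and 4.88 ± 4.77 in other cells, and on plate 2B 11.34 ± 3.65 in Pdx1 cells and 1.08 ± 3.10 in other cells. Carriers differed in level too, with medians of 12.31 in Pdx1 cells and 10.84 in other cells of the ventral bud, 12.49 in Pdx1 cells and 8.97 in other cells of plate 2A, and 12.35 in Pdx1 cells and 8.94 in other cells of plate 2B. Their numbers were 7 Pdx1 cells and 3 other cells in the ventral bud, so the ventral medians rest on few cells. On plate 2A, 14 cells below the Pdx1 limit held Nepn, and 6 of these were among its 10 endocrine-marker cells without Pdx1 and without another type's markers. In the restricted set of epithelial cells, Nepn was carried by 16 of 17 Pdx1 and 8 of 10 other cells of plate 2A, with a difference of mean level of 2.83 in place of 4.90, while Rhov and Chrna4 were each carried by 10 of 17 Pdx1 and 1 of 10 other cells.

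Rhov was found mostly in Pdx1 cells, being carried by 5 of 8 Pdx1 cells and 0 of 19 other cells in the ventral bud. On plate 2A it was carried by 10 of 21 Pdx1 cells and 1 of 27 other cells, and on plate 2B by 4 of 12 Pdx1 cells and 1 of 26 other cells, the last of these being the cell with all 6 genes. The differences of mean level were 5.53, 3.75 and 2.10 on the ventral plate, plate 2A and plate 2B. Chrna4 showed a like split, with 4 of 8 Pdx1 cells and 1 of 19 other ventral cells, 12 of 21 Pdx1 and 2 of 27 other cells on plate 2A, and 4 of 12 Pdx1 and 1 of 26 other cells on plate 2B. Its differences were 4.19, 3.99 and 2.67. Myo5c was carried by 4 of 8 Pdx1 cells and 3 of 19 other ventral cells, 7 of 21 Pdx1 and 1 of 27 other cells on plate 2A, and 4 of 12 Pdx1 and 1 of 26 other cells on plate 2B, with differences of 3.71, 2.38 and 2.69.

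Clic6 and Tmprss2 did not follow Pdx1 on every plate. Clic6 was carried by 5 of 8 Pdx1 cells and 12 of 19 other cells in the ventral bud, which are nearly equal shares of 62.5% and 63.2%, and by 10 of 21 Pdx1 and 9 of 27 other cells on plate 2A. On plate 2B it was carried by 9 of 12 Pdx1 cells and 4 of 26 others. The differences of mean level were 0.48, 0.68 and 4.10. Tmprss2 was carried by 1 of 8 Pdx1 cells and 7 of 19 other ventral cells, 4 of 21 Pdx1 and 4 of 27 other cells on plate 2A, and 4 of 12 Pdx1 and 2 of 26 other cells on plate 2B. Its differences were −1.97, −0.09 and 2.05.

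Read against all genes, 29.6% of 8997 genes were higher by 1 or more in ventral Pdx1 cells and 20% were lower. Nepn, Rhov, Chrna4 and Myo5c were among the higher and Tmprss2 among the lower. On plate 2A, 16% of 9763 genes were higher by 1 or more, among them the same 4 members. On plate 2B, 16.1% of 10296 genes were higher, and all 6 members were among them. The Nepn difference exceeded that of 99.97% or more of the genes tested on each plate. The genes were chosen for their bud levels, so this rank is not evidence that Nepn stands out. On the dorsal plates the other cells also included cells with endocrine markers and with markers of another type. The median over all genes was 0.24, 0.09 and −0.15 on plates 3, 2A and 2B.

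**Figure D5:**
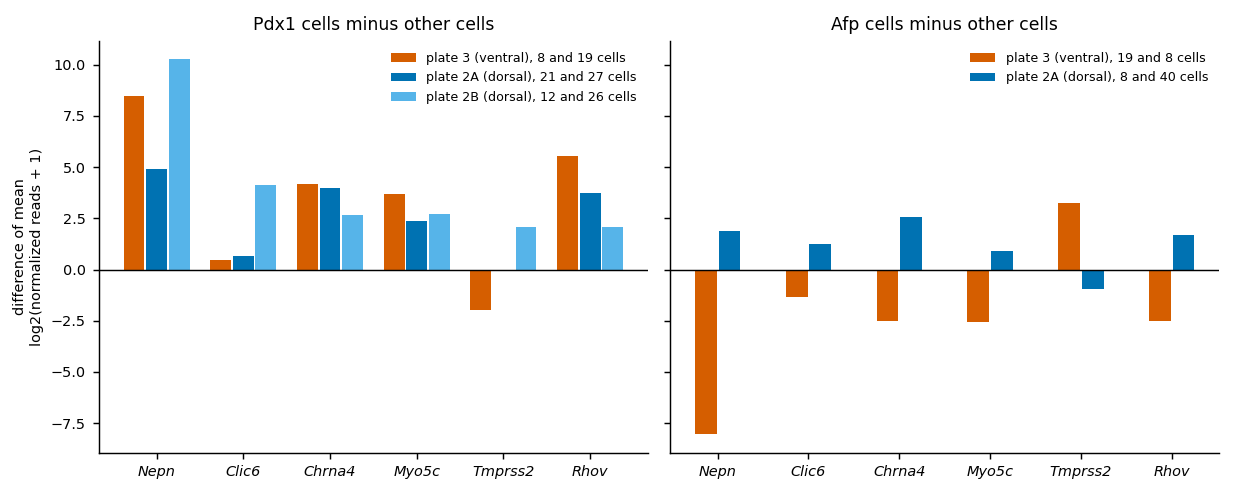
Difference of mean level of each gene, on the log2(normalized reads + 1) scale, for Pdx1 cells minus other cells (left) and Afp cells minus other cells (right), by bud plate. No error bars are drawn, since cells of a plate are not replicates. Nepn, Chrna4, Myo5c and Rhov bars are above 0 on all 3 plates at left, and at right the ventral and dorsal bars of each gene point in opposite directions.

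By Afp, the buds gave opposite directions. Ventral Afp cells held 1.58 ± 1.17 of the 6 genes in 19 cells, against 2.75 ± 1.28 in 8 other cells. On plate 2A, Afp cells held 2.75 ± 2.12 in 8 cells, against 1.73 ± 1.34 in 40 other cells. In the ventral bud Nepn was carried by 3 of 19 Afp cells and 7 of 8 other cells, with mean levels of 1.83 ± 4.35 and 9.86 ± 4.57. Rhov and Chrna4 were each carried by 2 of 19 Afp cells and 3 of 8 others, Myo5c by 4 of 19 Afp cells and 3 of 8 others, and Clic6 by 11 of 19 Afp cells and 6 of 8 others. These 5 genes were lower in ventral Afp cells, with differences from −1.32 (Clic6) to −8.04 (Nepn), where 30.2% of 8982 genes were lower by 1 or more.

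Tmprss2 was the exception in the ventral bud. It was carried by 8 of 19 Afp cells and 0 of 8 other cells, with a mean level of 3.67 ± 4.16 in Afp cells and 0.39 ± 1.11 in the others. The difference was 3.27, and 19% of genes were higher by 1 or more. On plate 2A it was carried by 1 of 8 Afp cells and 7 of 40 others, a difference of −0.94. There Chrna4 (2.58), Nepn (1.86), Rhov (1.67) and Clic6 (1.24) were higher in Afp cells, beside 24.8% of 9908 genes, and Myo5c differed by 0.92. The 2 splits are not independent: 5 of the 8 Afp cells of plate 2A also carried Pdx1, and 2 of the 19 ventral Afp cells did.

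Crossing both splits separated the classes further. In the ventral bud, 6 cells with Pdx1 and without Afp carried Nepn in 6, Clic6 in 4, Chrna4, Myo5c and Rhov in 3 each and Tmprss2 in none. The 17 cells with Afp and without Pdx1 carried Clic6 in 10, Tmprss2 in 7, Myo5c in 3, Nepn in 2, Chrna4 in 1 and Rhov in none. Both ventral cells with Pdx1 and Afp carried Rhov, and 1 of them carried Tmprss2. On plate 2A, the 5 cells with both carried Nepn in 5, Clic6 and Chrna4 in 4 each and Rhov in 3. The 3 with Afp alone carried Nepn, Clic6 and Chrna4 in 1 each. Among the 24 with neither gene Nepn was carried by 13, Clic6 by 8 and Tmprss2 by 4.

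The ventral cells with Sox17, an endoderm transcription factor that also marks the ventral cells that give rise to the bile ducts in mice, were looked at after these values were seen. There were 11, all with Afp and none with Pdx1. They carried Clic6 in 9, Tmprss2 in 7, Myo5c in 2, Chrna4 in 1, and Nepn and Rhov in none. The 5 foregut cells with Sox17 carried Clic6 in 4, Tmprss2 in 4, Myo5c in 3 and the other 3 genes in none. Thus 7 of the 8 ventral Tmprss2 cells also carried Sox17.

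Endocrine cells of the dorsal bud held part of the list. Among 21 dorsal cells with 3 or more endocrine markers and no other type's markers, Nepn was carried by 9, Clic6 by 8 and Chrna4 by 3, and Myo5c, Tmprss2 and Rhov by none. Outside this set, the 1 Afp cell of plate 2B carried 9 of the 12 endocrine markers and Tmprss2 at 7.64. It was left out because it also carried 3 neural markers. The 41 other epithelial dorsal cells carried Nepn in 36, Clic6 in 23, Chrna4 and Rhov in 16 each and Myo5c and Tmprss2 in 13 each. The number of the 6 genes per cell averaged 0.95 in the endocrine-marker cells and 2.85 in the others.

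Marker lists of other cell types were summed per cell to show what else moved with the Pdx1 split. On plate 3 the summed level of 10 mesenchyme markers ran from 0 to 9.83 in Pdx1 cells and from 0 to 6.23 in other cells, with 3 of them carried by any Pdx1 cell and 1 by any other cell. On plate 2B it ran from 0 to 14.2 in Pdx1 cells and from 0 to 40.2 in other cells, with 2 of 10 carried by any Pdx1 cell and 7 by any other cell. The 5 endothelial markers were at 0 in all Pdx1 cells of the 3 plates, and all 5 were carried in other cells of plate 2B. The median summed level of the 10 epithelial genes was 75.8 in Pdx1 cells and 18.7 in other cells of plate 2B. It was 75.7 in Pdx1 cells and 52 in other cells of plate 2A, and 69.7 in Pdx1 cells and 56.1 in other cells of plate 3. The part of these differences in the results for the 6 genes was not tested.

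Genes with the most similar pattern were ranked by the Pearson correlation of levels, less plate means, over the 113 bud cells, among 8855 genes carried by at least 12 of them. For Nepn these were Nkx6-2 (0.73), Rasgrf1 (0.73) and Spon1 (0.71). For Chrna4 they were Spon1 (0.62), Kirrel2 (0.61) and Pdx1 (0.55), and for Rhov Kirrel2 (0.74), Spon1 (0.60) and Pdx1 (0.58). For Myo5c they were Srgap3 (0.55), Gc (0.54) and Kirrel2 (0.53). Nkx6-2 is a homeobox factor related to Nkx6-1 of pancreatic progenitors, Rasgrf1 an exchange factor for Ras, Spon1 a secreted matrix protein, Kirrel2 a cell adhesion protein known from pancreatic islets, and Gc the vitamin D-binding protein.

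Clic6 and Tmprss2 had other neighbours. The genes most like Clic6 were Epcam, an epithelial adhesion protein, at 0.46, Tpd52 at 0.43 and Prr36 at 0.42. Those most like Tmprss2 were Cdh6, a cadherin, at 0.51, Lpar3, a lysophosphatidic acid receptor, at 0.51 and Car4, a membrane carbonic anhydrase, at 0.51. Lpar3 was carried by 12 bud cells and by none of the ventral bud. The mean level of the 6 genes was most like Vtn, which encodes vitronectin (0.73), Kirrel2 (0.73), Pdx1 (0.73), Rasgrf1 (0.71), Spon1 (0.70) and Nkx6-2 (0.70), then Cdc42ep1, Sox9, Cldn6 and Sfrp5 (0.68 to 0.66). Cells of a plate share libraries and depth, so these are descriptions.

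Kirrel2 and Rasgrf1 show how close some neighbours came. Kirrel2 was carried by 7 of 8 Pdx1 cells and 2 of 19 other cells in the ventral bud, 11 of 21 Pdx1 and 3 of 27 other cells on plate 2A, and 7 of 12 Pdx1 and 2 of 26 other cells on plate 2B, and by no foregut or liver cell. At E14.5, where Nepn was at 0, 6 of 73 cells carried Kirrel2. Rasgrf1 was carried by 7 of 8 Pdx1 and 1 of 19 other ventral cells, 16 of 21 Pdx1 and 8 of 27 other cells on plate 2A, and 9 of 12 Pdx1 and 2 of 26 other cells on plate 2B. Like Nepn, it was carried by no foregut, liver or E14.5 cell. Vtn, by contrast, was carried by 34 of 78 liver cells.

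Relatives and partners of each gene were taken from lists by family, and those carried by at least 10% of the cells of a bud plate are described. Of 18 small leucine-rich proteoglycans, 10 are in the table, and besides Nepn only Tsku, which encodes tsukushi, reached that share, in 3 ventral and 1 and 7 dorsal cells. Among the other chloride intracellular channels, Clic1 was carried by 72 of 82 foregut, 19 of 27 ventral, 34 of 48 and 34 of 38 dorsal, 31 of 78 liver and 49 of 73 E14.5 cells. Clic4 was likewise carried on every plate, by 81 foregut and 45 liver cells among others. The Clic4 difference was −2.95 between ventral Pdx1 cells and other ventral cells, and 5.18 between ventral Afp cells and the others. Clic1 ran the other way, with 2.63 and −4.15 on the same splits.

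Chrnb2, the beta2 subunit that Chrna4 is best known to pair with, was carried by 1 ventral and 6 and 5 dorsal bud cells. By Pdx1 it was carried by 1 of 41 Pdx1 cells and 11 of 72 other bud cells, while Chrna4 was carried by 20 of 41 Pdx1 cells and 4 of 72 other bud cells. Chrnb1, the beta subunit of the muscle receptor, was carried by 3 ventral and 7 and 3 dorsal bud cells. Of 16 nicotinic subunits listed, 8 are in the table, 5 of them carried by any bud cell.

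Myo5c differed from the other class V myosins. Myo5a was carried by 40 of 82 foregut cells, 5 ventral and 13 and 13 dorsal bud cells, and by 8 of 41 Pdx1 cells and 23 of 72 other bud cells. Myo5b was carried by 3 ventral and 9 and 1 dorsal bud cells. Myo5c was carried by 15 of 41 Pdx1 cells and 5 of 72 others. Of the Rab proteins that recruit such motors to vesicles, Rab11a, Rab11b and Rab8a were carried on every plate, and Rab25, an epithelial relative of Rab11, by 2 ventral and 14 and 6 dorsal bud cells and by no liver cell.

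Among the membrane serine proteases and their inhibitors other than Tmprss2, 5 of 5 genes tested were higher by 1 or more in the ventral bud than in the foregut, beside 4.95% of all genes, with a list median of 2.30 against −1.15 for all genes tested. They were the inhibitors Spint2 (4.99) and Spint1 (4.35) and the proteases Prss8 (2.30), St14 (2.08) and Hpn (2.08). In the dorsal bud 5 of 6 were higher, beside 7.82% of all genes, led by Spint2 (5.45) and Spint1 (3.67). Of the higher genes, only Spint2 and Spint1 had a foregut mean of 1 or more. Prss8, St14 and Hpn were tested only through the ventral bud, which goes far to fix a higher value. St14, Corin and Hpn were likewise tested only through the dorsal bud. These counts and the list median are therefore not evidence that the list stands out. The foregut side held 72 of 82 cells with markers of other types, and their part in these counts was not tested. Spint1 and Spint2 encode inhibitors of St14, the protease matriptase. By Pdx1, Spint1 was higher in Pdx1 cells by 3.20, 2.58 and 4.73 on plates 3, 2A and 2B, with means of 8.07 ± 2.99, 7.19 ± 3.15 and 7.65 ± 2.46 in Pdx1 cells and 4.87 ± 4.22, 4.61 ± 4.17 and 2.91 ± 4.12 in other cells. Ventral Tmprss2, lower in Pdx1 cells, ran the other way from Spint1.

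Rhov was unlike Cdc42 itself, which was carried by 26 of 27 ventral bud cells and by 69 of 78 liver cells. Rhou, the closest relative of Rhov, was carried by 19 foregut, 4 ventral, 15 and 11 dorsal bud, 8 liver and 5 E14.5 cells, and by 11 of 41 Pdx1 cells and 19 of 72 other bud cells. Rhov was carried by 19 of 41 Pdx1 cells and 2 of 72 other bud cells. Of the kinases such GTPases bind, Pak4 was carried by 14 ventral and 31 and 29 dorsal bud cells and was higher in Pdx1 cells by 2.16 on plate 3 and by 1.24 on plate 2A, with a difference of −1.89 on plate 2B. Among Cdc42-like GTPases and p21-activated kinases other than Rhov, 3 of 8 tested were higher and 2 lower in ventral Pdx1 cells, near the 29.6% and 20% of all genes.

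Of the pancreatic progenitor genes other than Pdx1, 9 of 13 tested were higher and 1 lower by 1 or more in ventral Pdx1 cells, 8 of 11 higher and 1 lower on plate 2A, and 10 of 11 higher on plate 2B. Over all genes, 29.6%, 16% and 16.1% were higher on these plates, and 20% and 11.9% were lower on plates 3 and 2A. A gene with a mean under 1 in the other cells was tested only through the Pdx1 cells, which goes far to fix a higher value. Among the higher ventral genes, only Sox9 (6.37) and Foxa2 (5.04) had a mean of 1 or more in the other cells. On plates 2A and 2B some of the higher genes also passed in this way, so these counts are not evidence that the list stands out. Sox9 was higher by 4.50, 4.01 and 5.63 on these plates, and Nkx6-2 by 3.22, 3.75 and 6.28. Of 10 epithelial genes, 6 of 9, 10 of 10 and 10 of 10 tested were higher, beside the same shares of all genes. Of the hepatic genes, 5 of 9 tested were lower in ventral Pdx1 cells, where 20% of all genes were lower, and none higher, among them Fgb with a difference of −7.21 and Afp with −7.09. Sox17 had a difference of −5.64 there. On the dorsal plates the hepatic genes that passed a difference of 1 were higher in Pdx1 cells, but these were few. On plate 2B, 4 of 5 tested were higher in Pdx1 cells and none lower, led by Hnf4a (3.09), beside 16.1% of all genes. Of these, Hnf4a, Fgg and Itih2 had means of 0.18, 0.27 and 0 in the other cells and were tested only through the Pdx1 cells. Fgg and Itih2 were each carried by 2 of 12 Pdx1 cells. On plate 2A, 1 of 5 tested was higher, Afp by 1.10, and none lower, beside 16% of all genes. These lists were chosen with earlier results of these data known.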

How the data were processed

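Fluorescent cells of Tg(Prox1-EGFP) embryos were sorted into plates, and libraries were made with Nextera XT, per the labels' protocols. STAR 2.5.3, Cufflinks and Cuffdiff 2.2.1 and the build GRCm38 are named in the submitters' processing notes. The counter and the filters on cells were not given in the sources used here. A table of log2 values with 20474 gene rows was deposited, with 76.7% of entries empty, which were set to 0. The series counts 452 processed cells, and the others are not analysed here. The unit was settled from the values: 1647510 of 1647530 entries came out as whole reads, to within 0.01, after undoing log2(reads / size factor + 1).

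The members and lists were chosen with earlier results of these data known. Named genes are the members, the 3 genes most like each and the 10 most like their mean, and listed relatives carried by 10% of a bud plate; genes of mitochondria, ribosomes, the Y chromosome, predicted genes and Xist were not ranked. Means and SDs over cells, shares with exact 95% Clopper-Pearson intervals and differences of mean log2 were computed. A gene was tested with a mean of 1 or more in either group, and counted as called at a difference of 1. With 1 sample a group no test was made and no p-value computed. A share of 0 is given with 3 divided by the number of cells. Intervals and limits cover counting error only, since PCR reads are not independent molecules. No doublet caller was run, and no 2 cells were identical. The steps were tested on simulated cells. Tools were python 3.11.15, numpy 2.4.6, pandas 2.3.3, scipy 1.17.1 and matplotlib 3.10.9.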

Additional observations from a re-analysis of the deposited data

Results flagged for a closer look

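For each of the 6 genes, the difference between Afp cells and other cells had the opposite sign in the ventral bud and on dorsal plate 2A. In the ventral bud, Afp cells minus other cells gave −8.04 for Nepn, −2.58 for Myo5c, −2.51 for Rhov, −2.49 for Chrna4, −1.32 for Clic6 and 3.27 for Tmprss2 on the log2 scale. On plate 2A the same differences were 1.86, 0.92, 1.67, 2.58, 1.24 and −0.94. With 1 plate on the ventral side and 19 and 8 cells in its classes, the difference between the buds was not tested. Among the Afp cells, 2 of 19 carried Pdx1 in the ventral bud and 5 of 8 on plate 2A, and the part of this in the result was not tested.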

How the results depend on the processing

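Of 860 values recomputed under 15 alternatives, 696 stayed in place, 156 moved further and 8 reversed. In place meant within the interval for a share, within 1.5 times for larger values, and within 1 for differences under 1. A reversal was counted only for differences of 1 or more, so smaller ones that changed sign are not among the 8. Other carrying limits, thinning and total-read scaling left all of theirs in place, and leaving out cells under 2000 genes changed nothing, as no cell had so few, while a pseudocount of 10 moved 50 of 77 differences. Without the filter on low values all 16 shares of genes past a difference of 1 fell by over 1.5 times, for instance to 2.35% in place of 4.95% higher in the ventral bud than in the foregut, to 12% in place of 29.6% than in the liver, and for the dorsal bud to 25.5% in place of 54.4% than in the liver, since all 20474 genes then enter the total. Without cells of other types, the ventral bud minus foregut difference became −1.16 for Myo5c and −2.22 for Tmprss2, and the dorsal one −1.87 for Clic6. The dorsal differences of Myo5c and Tmprss2 changed sign too, from 0.75 and 0.78 over all cells. Their means were then 1.46 and 1.57 in the dorsal bud and 3.44 and 4.92 in the foregut. A last set held epithelial cells without other types and under 3 endocrine markers, chosen after seeing the data. In it the ventral minus foregut differences of Myo5c and Tmprss2 were −1.45 and −2.66, and the dorsal one of Clic6 was −1.49. The ventral minus foregut difference of Clic6 was −0.027 and the ventral minus dorsal difference of Myo5c −0.12. The share of foregut cells with 3 or more members was 14.3% in epithelial cells, 30% without other types and 33.3% in the last set, where it was 48.1% on plate 2A and 71.4% on plate 2B. There the number of members in Pdx1 cells exceeded that in other cells by 1.14 on plate 2A and 1.18 on plate 2B. By construction these sets hold fewer cells. No paired analysis was possible because the labels name no animals. Depth limits shares of cells, not levels of carriers, and the absence of named animals limits all comparisons.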
